A study of Mus musculus with 8 samples.

Results

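Genes of the Wnt pathway were followed through mammary epithelial cells of C57BL/6N mice. The 10 genes were listed by symbol: the ligands *Wnt4*, *Wnt5a*, *Wnt5b*, *Wnt6*, *Wnt7b* and *Wnt10a*, the agonist *Rspo1*, its receptor *Lgr4*, the feedback gene *Axin2* and the secreted inhibitor *Sostdc1*. They are 10 of the 27998 genes counted, and all 10 were found. Single epithelial cells were sorted by EpCAM after staining for CD31, CD45 and Ter119 had gated out endothelial and blood cells, and RNA was counted as unique molecular identifiers (UMIs), each of which stands for 1 captured transcript, at its 3′ end. There were 2 mice at each of 4 stages and 1 library per mouse: 8-week-old nulliparous females (NP), pregnant females at gestation day 14.5 (G), lactating females at day 6 (L) and females 11 days past natural weaning (PI, for post-involution). No mouse carried an engineered allele or received an agent. Vaginal smears placed both NP mice and PI mouse 2 in oestrus and PI mouse 1 in dioestrus.

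Wnt proteins are secreted, lipid-modified signals that bind Frizzled receptors on nearby cells. In the canonical branch the signal stabilises β-catenin, which then acts with TCF and LEF factors on target genes such as *Axin2*. R-spondins bind LGR receptors and protect Frizzled from removal at the cell surface, whereas *Sostdc1* encodes a secreted protein that binds the LRP co-receptors and also BMP ligands. In the mammary gland *Wnt4* is known as a signal released by hormone-sensing cells in response to progesterone, and basal cells are known as its receivers.

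UMIs were summed per mouse and per cluster of the authors (C1 to C19), with at least 20 cells per sum, which gave 51 sums. A level is in CPM, the UMIs of a gene per 1000000 UMIs of the sum, and levels are compared across clusters or stages for 1 gene, not between genes. Clusters of the same cell type were joined for tests: luminal progenitors (LP, C6 and C7), hormone-sensing progenitors (HSp, C1 and C2), differentiated hormone-sensing cells (HSd, C3 to C5), alveolar progenitors (Avp, C10 and C11), differentiated alveolar cells (Avd, C8 and C9) and basal cells (C12 to C14). Depth ran from 13785920 to 35711533 UMIs per mouse over all barcodes, and 25009 cells passed the authors' filters, of which 23183 lay in C1 to C15. Of 25806 barcodes, 791 occurred in more than 1 library. The authors state that they excluded such cells, beside cells that failed limits on UMIs, genes detected or mitochondrial share. The summed level of 5 basal markers was 9693 to 43515 CPM in basal cells of NP, G and L mice and 52.4 to 144 CPM in LP, and the summed level of 4 hormone-sensing markers was 1882 to 4185 CPM in HSd. C15, a small cluster read by the authors as Procr+ basal cells although it held some pericyte markers, and the non-epithelial C16 to C19 were kept for levels only. Fewer transcripts per cell and fewer captured transcripts cannot be told apart in such sums.

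The 10 genes differed in where they lie as well as in where they were read. In the GRCm38 assembly with the GENCODE M21 annotation, all are protein-coding. *Wnt6* (chr1:74771892-74785322) and *Wnt10a* (chr1:74791516-74804179) are neighbours on the forward strand with 6193 bases between them. *Rspo1* (chr4:124986430-125009099) and *Wnt4* (chr4:137277489-137299726) share another chromosome. *Lgr4* lies at chr2:109917647-110014257, *Axin2* at chr11:108920349-108950783, *Sostdc1* at chr12:36314139-36318452 and *Wnt5a* at chr14:28504750-28527448, all forward. *Wnt5b* (chr6:119432531-119544347) and *Wnt7b* (chr15:85535437-85582473) are on the reverse strand. The counts are 3′ tags, so they do not tell which start of a gene was used.

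The promoter windows of 1 ligand or agonist for each compartment are shown, of genes that were highest in hormone-sensing cells, luminal progenitors, alveolar cells and basal cells in turn. Each holds 250 bases before and 50 bases after a transcription start from RefSeq on GRCm38.p6, printed 5′ to 3′ on the strand of the gene. Capitals mark matches, on either strand, to TTCNNNGAA, which STAT factors bind, to AGAACA (or TGTTCT), the half-site of steroid receptors, or to CTTTGA (or TCAAAG), which TCF and LEF factors bind.
Wnt4 (chr4:137277385-137277684, forward): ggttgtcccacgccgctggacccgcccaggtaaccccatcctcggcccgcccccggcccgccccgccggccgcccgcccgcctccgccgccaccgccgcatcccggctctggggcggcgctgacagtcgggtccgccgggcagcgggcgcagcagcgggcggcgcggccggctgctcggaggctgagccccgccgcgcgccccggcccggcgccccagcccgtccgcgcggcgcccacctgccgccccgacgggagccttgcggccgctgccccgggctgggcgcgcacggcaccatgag
Wnt5b (chr6:119467162-119467461, reverse): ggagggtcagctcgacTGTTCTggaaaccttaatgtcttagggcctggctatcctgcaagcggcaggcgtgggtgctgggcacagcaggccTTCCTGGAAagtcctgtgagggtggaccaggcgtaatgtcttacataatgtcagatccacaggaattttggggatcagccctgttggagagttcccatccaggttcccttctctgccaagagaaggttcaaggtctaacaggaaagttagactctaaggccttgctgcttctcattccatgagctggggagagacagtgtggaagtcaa
Rspo1 (chr4:124986180-124986479, forward): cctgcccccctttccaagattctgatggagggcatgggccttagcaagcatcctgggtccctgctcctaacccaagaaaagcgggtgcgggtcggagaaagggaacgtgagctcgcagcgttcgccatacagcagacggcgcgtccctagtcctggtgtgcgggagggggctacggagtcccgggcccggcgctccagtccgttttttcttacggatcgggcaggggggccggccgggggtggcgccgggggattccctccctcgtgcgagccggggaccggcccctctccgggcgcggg
Wnt6 (chr1:74771642-74771941, forward): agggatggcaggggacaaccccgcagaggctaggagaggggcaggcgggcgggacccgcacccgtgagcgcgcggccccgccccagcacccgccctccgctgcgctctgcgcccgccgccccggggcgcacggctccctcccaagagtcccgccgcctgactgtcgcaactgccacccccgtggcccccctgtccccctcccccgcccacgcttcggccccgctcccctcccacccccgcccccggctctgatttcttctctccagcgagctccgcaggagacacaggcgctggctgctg

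The windows of *Wnt4*, *Rspo1* and *Wnt6* held none of the 3 motifs. The *Wnt5b* window shown, 1 of 3 listed for this gene and chosen for its matches, held the half-site 234 bases and the STAT motif 159 bases before the start, and another (chr6:119449337-119449636) held CTTTGA 71 bases before its start. The *Wnt5b* window at the 5′ end of the gene (chr6:119544298-119544597) was 78% G or C and held none of the 3. The *Axin2* window held the half-site 152 bases before the start and no TCF/LEF motif, and the *Lgr4* window none of the 3. Over 32851 promoters of the same length, the STAT motif was in 8.30%, the half-site in 18.97% and the TCF/LEF motif in 16%, so the matches are descriptions of these letters. The *Wnt4* window was 84.3% G or C, that of *Wnt6* 76.7%, that of *Rspo1* 69% and the *Wnt5b* window shown 53%, against a median of 52.7% over all promoters. Windows were at hand for 6 of the 10 genes, and *Wnt5a*, *Wnt7b*, *Wnt10a* and *Sostdc1* were not matched.

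The ligands differed in the compartment where they were highest, and several were also read in other compartments. *Wnt4*, *Wnt5a* and *Wnt7b* were highest in hormone-sensing clusters, *Wnt5b* in luminal progenitors, *Rspo1* in alveolar cells of gestation, and *Wnt6* and *Wnt10a* in basal cells. *Sostdc1* was found in basal cells and alveolar progenitors, *Lgr4* in all of C1 to C15 with a maximum in basal cells, and *Axin2* at no more than 7.76 CPM in any of C1 to C15. The clusters were made from these same transcripts, so the order of clusters is a description. The plot of levels by cluster shows these patterns for each mouse.

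**Figure D1:**
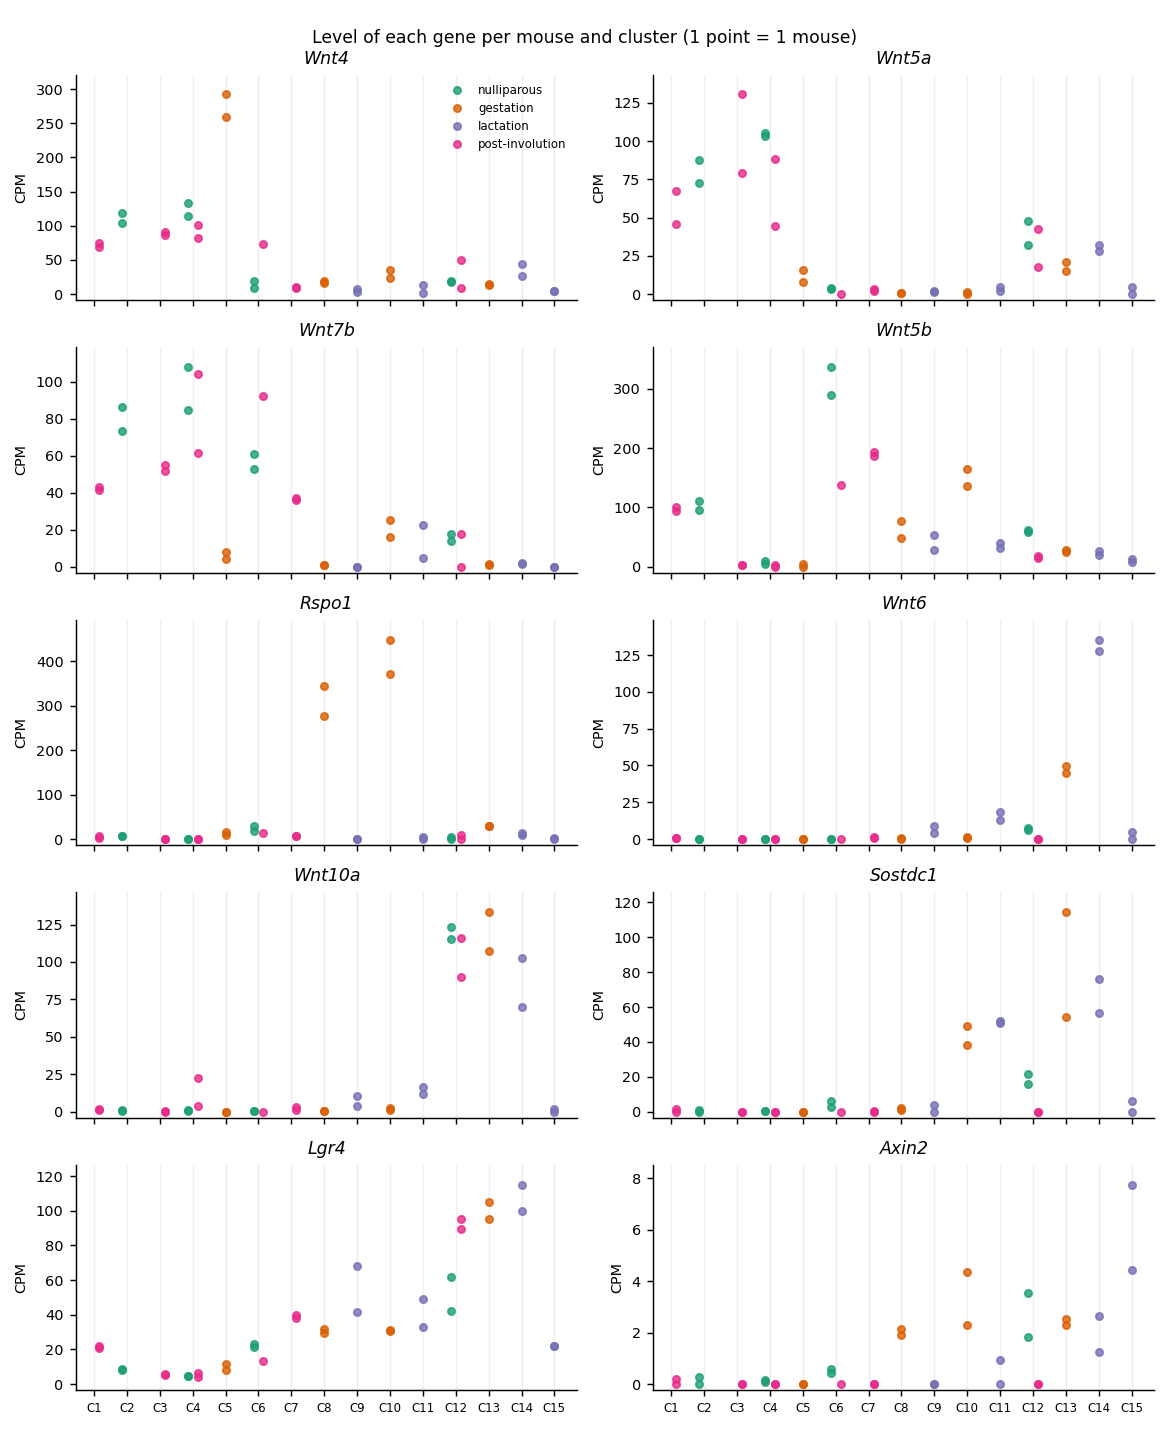
Level of each of the 10 genes (CPM, linear axis from 0) in clusters C1 to C15. Each point is 1 mouse and colour gives the stage. *Rspo1* stands above 270 CPM only in the gestation alveolar clusters C8 and C10, while *Wnt6* is highest in the lactation basal cluster C14 and *Wnt4* in the gestation hormone-sensing cluster C5.

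*Wnt4* was read at 292 and 259 CPM in C5 of the 2 G mice, at 114 and 133 CPM in C4 and 104 and 118 CPM in C2 of NP mice. In PI mice it was at 90.3 and 86.6 CPM in C3 and at 69.3 and 75.2 CPM in C1. C5 stood apart from the others, and C2 and C4 overlapped. Outside hormone-sensing clusters the highest levels in both mice were 25.7 and 44.5 CPM in C14 and 23.7 and 35.6 CPM in C10, while a C6 sum of 22 cells in PI mouse 1 read 72.5 CPM and C12 of PI mouse 2 49.3 CPM. A *Wnt4* UMI was found in 70% and 75.6% of C5 cells (median 6224 and 5514 UMIs per cell), against 0% in fibroblast cluster C18 of the same mice (5379 and 4619 UMIs), where 0 of 38 and 0 of 31 cells held one. In C8 it was found in 16.1% and 16.3% of cells (10901 and 8677 UMIs). After thinning to 1000 UMIs per cell, 25% and 14.6% of C5 cells and 1.71% and 1.43% of C8 cells still held one.

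*Wnt5a* and *Wnt7b* shared this compartment, but not C5. *Wnt5a*, a ligand known mainly for signalling without β-catenin, was at 105 and 103 CPM in C4, 79.2 and 130 CPM in C3, 72.5 and 87.8 CPM in C2 and 46 and 67 CPM in C1. It was at 8.11 and 15.5 CPM in C5, from 1 and 4 UMIs. In basal clusters it was between 15.1 and 48 CPM, and in C18 of G and L mice at 43.3 to 53.2 CPM. *Wnt7b*, a canonical ligand, was at 84.5 and 108 CPM in C4 and 86.2 and 73.1 CPM in C2. In C5 it was at 8.11 and 3.87 CPM, from 1 UMI in each mouse. It was also present in luminal progenitors, with 60.7 and 52.7 CPM in C6. C2 and C4 of NP mice overlapped for *Wnt7b* but not for *Wnt5a*, and C5 lay below every sum of C1 to C4 for both genes.

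*Wnt5b*, another ligand known for signalling without β-catenin, was highest in C6 of NP mice, at 337 and 289 CPM, followed by C7 at 193 and 186 CPM, the small C6 sum of PI mouse 1 at 138 CPM and C10 at 135 and 164 CPM. The hormone-sensing progenitors C2 (110 and 95.9 CPM) and C1 (101 and 93.1 CPM) overlapped with each other. In the differentiated hormone-sensing clusters of the same stages it was at most 8.68 CPM, so progenitors and differentiated cells of that lineage did not overlap. It was found in 82% and 75.3% of C6 cells and in 8.55% and 4.29% of C4 cells, although the median C4 cell was deeper.

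*Rspo1* was read at 448 and 372 CPM in C10 and 277 and 345 CPM in C8. C6 held 29.6 and 17.4 CPM and C7 6.36 and 7.53 CPM. A *Rspo1* UMI was present in 92.1% and 88.9% of C10 cells and in 82.7% and 85% of C8 cells, against 10% and 3.49% in the non-epithelial C17 and 9.09% and 7.23% in C19 of the same mice, which are taken as the background of free RNA. At 1000 UMIs per cell they were 39.3% and 29.4% in C10, 23.4% and 26.6% in C8 and 0% and 1.16% in C17. Fibroblast cluster C18 read 40.8 and 53.2 CPM in G mice, which rest on 9 and 8 UMIs.

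*Wnt6* and *Wnt10a* were basal. *Wnt6* was at 7.29 and 6.4 CPM in C12 of NP mice, 49.5 and 44.6 CPM in C13 and 128 and 136 CPM in C14, and 39.2% and 45.1% of C14 cells held at least 1 UMI of it. *Wnt10a* was at 115 and 123 CPM in C12 of NP mice, 107 and 133 CPM in C13 and 70 and 103 CPM in C14, so that C12 and C13 overlapped and C14 lay just below both. In C1 to C8 and C10 *Wnt6* stayed at or under 1.26 CPM in every sum. *Wnt10a* did so at or under 3.83 CPM except for 22.1 CPM in a C4 sum of 40 cells of PI mouse 1.

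*Lgr4* was the most widely spread of the 10. It was lowest in C4 (3.83 to 6.32 CPM) and C3 (5.1 and 5.6 CPM), near 30 CPM in C8 and C10, and highest in C14 (115 and 99.8 CPM) and C13 (95.3 and 105 CPM), which overlapped. *Sostdc1* was at 114 and 54.4 CPM in C13, 56.3 and 76.1 CPM in C14, 38.3 and 49.3 CPM in C10 and 50.9 and 51.7 CPM in C11. In the differentiated alveolar clusters next to them it was at 1.85 and 0.683 CPM (C8) and at 3.49 and 0 CPM (C9), so alveolar progenitors and differentiated alveolar cells did not overlap. *Axin2* gave only 270 UMIs in the whole data set, against 3660 to 17184 for the other 9 genes, and its highest level in both mice of a cluster of C1 to C15 was 7.76 and 4.45 CPM in C15. It gave 98 UMIs in C8 and 77 in C14, and 0 in C3 and C7.

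The closest genes by pattern differed for each member. Over 35 sums of C1 to C15 and 8023 genes, the highest Pearson r of log2(CPM + 1) was 0.89 for *Wnt4* with *Adam10*, 0.91 for *Wnt5a* with *Fgg* and with *Pgr*, and 0.93 for *Wnt7b* with *Lgals3*. It was 0.91 for *Wnt5b* with *Cdc42ep3*, 0.85 for *Rspo1* with *Txndc16*, 0.90 for *Wnt6* with *Spon2* and 0.89 for *Lgr4* with *Fhod3*. *Wnt10a* was closest to *Speer4e* (0.95) and *Pdpn* (0.93), and *Sostdc1* to *Wnt6* itself (0.82). The points share libraries, and many clusters hold 1 stage only. Among the members, *Wnt6* and *Wnt10a* had r = 0.69.

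The tests compared stages within a cell class, with mice as replicates. Log2 fold changes and their standard errors (SE) come from edgeR's quasi-likelihood test, and p-values were adjusted by the Benjamini-Hochberg method across every gene in the comparison, with a threshold of 0.05. With 2 mice against 2 an exact permutation test of a gene cannot go below p = 0.333, so these calls rest on the variance shared between genes. A gene whose stages do not overlap reaches just that value. Lack of overlap therefore describes the mice and adds no support to a call. Comparisons with a stage in common share its mice. Of 77 other genes of the Wnt pathway in 7 groups (other ligands, ligand secretion, R-spondins and their receptors, receptors, inhibitors, transducers, and feedback and target genes), the number that passed is given beside the members, with those of 20 CPM or more at 1 stage named, up to 10 per comparison. The grid of changes gives all tests of the 10 genes.

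**Figure D2:**
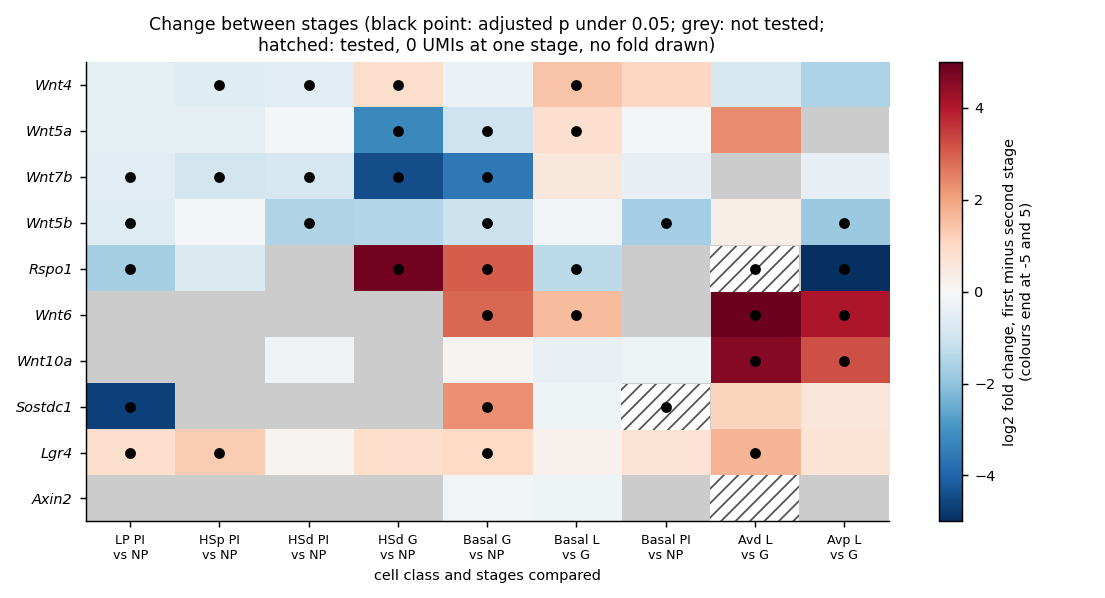
Log2 fold change of each gene (rows) in 9 comparisons of stages within a cell class (columns), red where the first stage is higher and blue where it is lower, with colours ending at -5 and 5. Black points mark adjusted p under 0.05, grey cells were filtered out, and hatched cells had 0 UMIs at 1 of the stages. *Wnt7b* is lower after involution in all 3 luminal classes, and *Rspo1* changes in 6 of 9 comparisons.

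In hormone-sensing cells of gestation, *Wnt4* was higher while *Wnt5a* and *Wnt7b* were lower. *Wnt4* was at 292 and 259 CPM in HSd of G mice and at 114 and 133 CPM in NP mice. The G mice lay above both NP mice (log2 fold change 0.89, SE 0.21, adjusted p = 0.000318). The median of all genes in this comparison was -0.20, and relative to it the change of *Wnt4* was 1.09. *Wnt5a* rested on 1 and 4 UMIs in the G mice, 8.11 and 15.5 CPM against 105 and 103 CPM in NP mice, without overlap. The test called it lower (-3.23, SE 0.46, adjusted p = 9.20e-11), and its value was -3.95 when G mouse 2 was left out. *Wnt7b* rested on 1 UMI in each G mouse, 8.11 and 3.87 CPM against 84.3 and 108 CPM in NP mice. Its pooled level was 18.5-fold lower in G (95% counting interval 5.12 to 153), and the test called it lower (-4.44, adjusted p = 1.09e-12, and -3.85 without G mouse 2). Unlike in the other comparisons of stages, the spread of a single gene between mice had no weight of its own in this fit. The small p-values here thus rest wholly on the variance shared between genes.

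In all, 4 of the 6 members tested were called in HSd between G and NP, beside 18.6% of 10978 genes. *Rspo1* was the fourth, with 1 and 4 UMIs (8.11 and 15.5 CPM) against 0.626 and 0.137 CPM (log2 fold change 4.84, adjusted p = 0.000814). In the same G mice the non-epithelial C17 and C19 held 7.46 to 18.7 CPM of *Rspo1*, so HSd was within their range, and with any 1 mouse left out *Rspo1* did not pass the filter on low counts. *Lgr4* (8.11 and 11.6 CPM against 4.78 and 4.74 CPM) and *Wnt5b* did not pass. All G values rest on 20 and 41 cells. Other transcripts moved with these genes. The 8 milk protein genes summed to 1842 and 991 CPM in G against 14.5 and 11.9 CPM in NP mice, with *Wap* and *Lalba* at 0 UMIs in both G mice. The 4 immune markers summed to 114 and 73.5 CPM against 10.9 and 3.78 CPM, with *Ptprc* and *Cd3e* at 0 UMIs in G. The 4 luminal markers were at 9834 and 10578 CPM against 21547 and 16566 CPM, and 3 of them were called lower. The sum of the 4 hormone-sensing markers overlapped (1882 and 2984 CPM against 3243 and 2957 CPM), with 1 called higher and 1 lower. Their part in the results was not tested. Of the other pathway genes, 1 of 36 tested was higher and 4 were lower, and *Wls*, which carries Wnt proteins to the cell surface, was at 24.3 and 58.1 CPM in G against 82.6 and 78.5 CPM in NP mice (-1.02, SE 0.34, adjusted p = 0.0179).

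After involution, *Wnt4* and *Wnt7b* were lower in both hormone-sensing classes than in nulliparous mice, while *Wnt5a* passed the test in neither. In HSp, *Wnt7b* was at 44.1 and 41.4 CPM in PI and at 86.5 and 73.1 CPM in NP mice, without overlap (log2 fold change -0.92, SE 0.14, adjusted p = 0.00112). *Wnt4* was at 72.3 and 75.3 CPM against 104 and 118 CPM (-0.59, SE 0.14, adjusted p = 0.0150). *Lgr4* went the other way, with 21.5 and 20.8 CPM in PI and 8.88 and 8.38 CPM in NP mice (1.28, SE 0.21, adjusted p = 0.00158). These were 3 of 6 members tested, beside 16.6% of 10692 genes. *Wnt5a* (48.7 and 67.2 CPM against 72.6 and 87.8 CPM) did not pass, with adjusted p = 0.123, and *Wnt5b* was at 99.4 and 92.9 CPM against 110 and 95.9 CPM, which overlap. The call of *Wnt4* was lost without NP mouse 1 (adjusted p = 0.0609), without NP mouse 2 (0.218) and with DESeq2 (0.0685).

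In HSd, *Wnt7b* was at 56.4 and 55.1 CPM in PI mice and 84.3 and 108 CPM in NP mice (log2 fold change -0.85, SE 0.17, adjusted p = 0.00789), and *Wnt4* at 89.6 and 87.1 CPM against 114 and 133 CPM (-0.54, SE 0.16, adjusted p = 0.0413). Neither gene overlapped between stages. *Wnt5a* was at 76.2 and 129 CPM against 105 and 103 CPM, and the NP mice lay between the 2 PI mice. *Wnt5b* was called lower, at 2.74 and 1.99 CPM against 8.61 and 3.78 CPM (-1.51, SE 0.40, adjusted p = 0.0281). Beside it, 3 luminal progenitor markers summed to 34 and 28.1 CPM in PI against 78.4 and 39.9 CPM in NP mice, and 5 basal markers to 15.6 and 24.7 CPM against 125 and 51.9 CPM, with all markers of both lists above 0. Their part in the result was not tested. The 3 calls were 3 of 6 members tested, beside 14.3% of 11994 genes. Without NP mouse 1 *Wnt5b* was at -0.83 (adjusted p = 0.395), and with DESeq2 its adjusted p was 0.0575. Without NP mouse 2 the calls of *Wnt4* (-0.38, 0.412) and *Wnt7b* (-0.61, 0.0834) were lost, as was that of *Wnt4* without PI mouse 1 (-0.50, 0.0509).

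**Figure D3:**
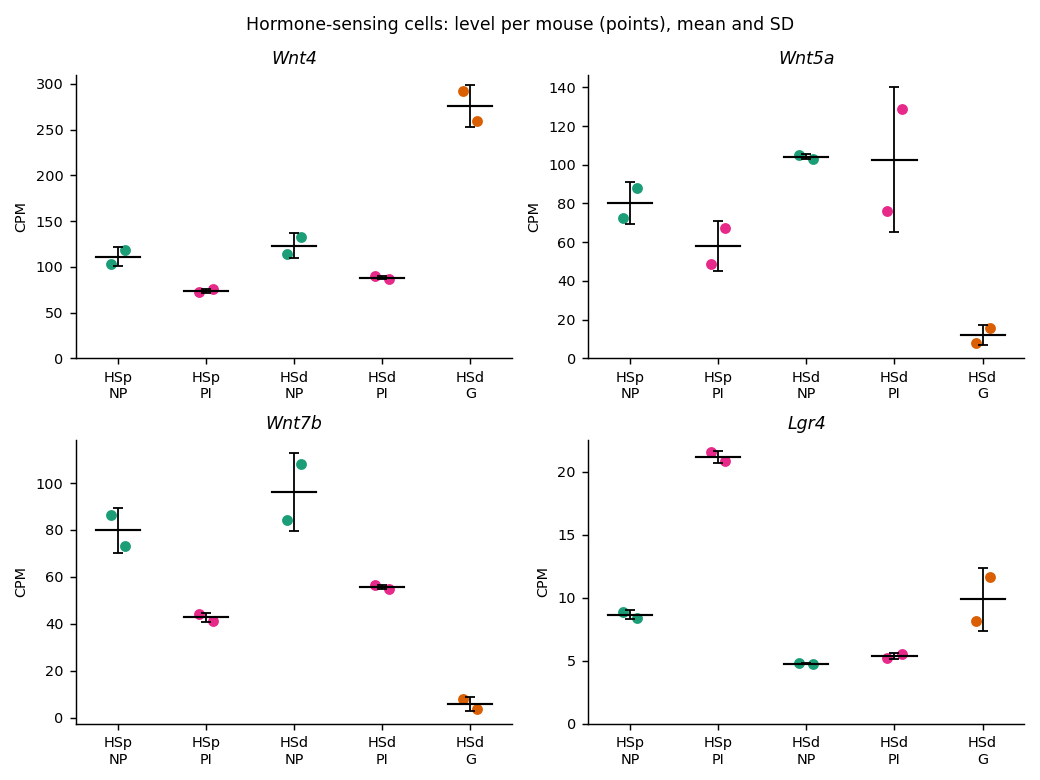
Levels (CPM) of *Wnt4*, *Wnt5a*, *Wnt7b* and *Lgr4* in hormone-sensing progenitors (HSp) and differentiated hormone-sensing cells (HSd) by stage. Points are mice, black lines the mean and bars the SD (n = 2). *Wnt4* in HSd of G mice (292 and 259 CPM) lies above every other point, whereas *Wnt5a* and *Wnt7b* are lowest there.

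In luminal progenitors, *Wnt5b*, *Wnt7b*, *Rspo1* and *Sostdc1* were lower after involution and *Lgr4* was higher. *Wnt5b* was at 192 and 185 CPM in PI and 337 and 289 CPM in NP mice, without overlap (log2 fold change -0.65, SE 0.12, adjusted p = 0.00306). *Rspo1* was at 6.49 and 7.73 CPM against 29.6 and 17.4 CPM (-1.66, SE 0.26, adjusted p = 0.000918). *Lgr4* was at 39.5 and 38 CPM against 21.1 and 23.2 CPM (0.89, SE 0.16, adjusted p = 0.00222). Both PI mice lay outside the NP range for each of these genes.

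*Sostdc1* gave 0 and 2 UMIs in LP of PI mice (0 and 0.249 CPM) and 9 and 14 UMIs in NP mice (2.72 and 5.80 CPM). The pooled level was 31.2-fold lower in PI (95% counting interval 7.72 to 273), and the gene was called (-4.68, adjusted p = 0.00187). The fitted value was -7.16 without PI mouse 2, which held both PI UMIs, and -3.82 without PI mouse 1. *Wnt7b* was at 37.2 and 37.1 CPM against 60.7 and 52.6 CPM (-0.53, SE 0.14, adjusted p = 0.0188). That call was lost without NP mouse 1 (-0.44, adjusted p = 0.150) and with DESeq2 (adjusted p = 0.117). *Wnt4* (11.1 and 8.98 CPM against 19.6 and 8.69 CPM) overlapped. In all 5 of 7 members tested were called, beside 26.9% of 10766 genes. The 8 milk protein genes moved with them, from 770 and 1445 CPM in LP of NP mice to 13392 and 14585 CPM in PI mice, and all but *Glycam1*, at 0 UMIs in all 4 mice, were called higher. The 3 luminal progenitor markers summed to 2390 and 2117 CPM in NP and 1326 and 917 CPM in PI mice, with *Aldh1a3* called lower and *Cd14* higher. Their part in the results was not tested.

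Other pathway genes of luminal progenitors moved in both directions, with 5 of 41 tested higher and 3 lower after involution. That is a smaller share than the 26.9% called among all genes tested. *Sfrp2*, a secreted Wnt antagonist, was at 61.8 and 57.6 CPM in PI and 5.43 and 10.3 CPM in NP mice (3.05, SE 0.24, adjusted p = 9.58e-06). It was also higher in HSp, at 30.2 and 33.5 CPM against 2.51 and 4.05 CPM (3.34, SE 0.26, adjusted p = 6.76e-06). There 1 of 40 pathway genes tested was higher and 2 were lower, again a smaller share than the 16.6% of all genes. *Wls* (0.71), the target gene *Myc* (0.71) and the kinase gene *Gsk3b* (0.53) were higher in LP, and *Cd44* was lower (-0.38). In HSd 4 of 41 were higher and 3 lower, beside 14.3% of all genes called. Among them *Fzd10* (1.05) and *Ccnd1* (0.92) were higher and *Tcf7l2* was lower (-0.56).

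The changes after involution were compared between cell classes in a fit with the mouse as a term and HSd as the reference. The change of *Lgr4* in LP exceeded that in HSd by 0.78 on the log2 scale (SE 0.27, adjusted p = 0.0496), and the difference for HSp was 1.09 (SE 0.30, adjusted p = 0.0540), which did not pass. The change of *Wnt5b* in HSp was 1.35 above that in HSd (SE 0.32, adjusted p = 0.0157), and that in LP was 0.88 above it (SE 0.31, adjusted p = 0.0532). No difference passed for *Wnt4* or *Wnt7b* in any class. Called genes made up 17.8% of 12080 for LP and 2.89% for HSp, so 1 of the 9 members fitted is near the background for LP. For basal cells no member passed, beside 6.46% of all genes, and 1 member had an unadjusted p under 0.05 (*Wnt4*, adjusted p = 0.198). DESeq2 was not run on this fit. The *Lgr4* call was lost when any 1 mouse was left out (adjusted p 0.0809 to 0.206), and the *Wnt5b* call was lost without NP mouse 1 (0.355) and without PI mouse 2 (0.365).

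In alveolar cells, *Rspo1* fell from its highest level in gestation to a few UMIs or none in lactation. It gave 7315 and 7571 UMIs in Avd of G mice (277 and 345 CPM) and 0 UMIs in Avd of both L mice, in 43 and 48 cells. A count of 0 allows up to 2.27 CPM over the L group, so the level was at least 136-fold lower (adjusted p = 4.29e-07). Milk protein genes took 44.4% and 41.6% of the UMIs of Avd in L and 9.67% and 5.74% in G mice, and with these genes left out of the totals the bound is at least 84.1-fold. In Avp, where milk protein genes took 0.203% to 6.96%, *Rspo1* was at 448 and 372 CPM in G and 3.55 and 1.15 CPM in L mice, which rest on 4 and 1 UMIs (log2 fold change -7.02, SE 0.32, adjusted p = 1.01e-06). Without L mouse 1 this value was -8.10.

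*Wnt5b* in Avp was at 29.2 and 39.1 CPM in L and 135 and 164 CPM in G mice, without overlap (-1.87, SE 0.21, adjusted p = 0.000234). In Avd it was at 27.7 and 52.4 CPM in L and 47.6 and 76.5 CPM in G mice, which overlap. Its CPM were lower in L while the fitted log2 fold change was 0.33 (SE 0.33, adjusted p = 0.528), and with milk protein genes left out of the totals it was at 49.8 and 89.7 CPM against 52.6 and 81.2 CPM, so its direction there depends on the scaling. *Lgr4* in Avd was at 67.5 and 41.6 CPM in L against 31.5 and 29.6 CPM in G mice (1.70, SE 0.23, adjusted p = 0.000279), where the median of all genes was -0.14. With milk protein genes left out of the totals it was at 121 and 71.3 CPM against 34.9 and 31.5 CPM. The size of its change thus depends on the scaling, while its direction was the same by both totals. In Avp it did not pass (47.9 and 32.2 CPM against 31.4 and 30.6 CPM, adjusted p = 0.0878). *Sostdc1* in Avp was at 48.7 and 61 CPM in L and 38.3 and 49.3 CPM in G mice, which overlap.

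*Wnt6* and *Wnt10a* were called higher in lactation alveolar cells. In Avp *Wnt6* was at 17.7 and 12.7 CPM in L and 0.765 and 1.25 CPM in G mice (4.06, SE 0.55, adjusted p = 0.000659), and *Wnt10a* at 16 and 11.5 CPM against 0.765 and 2.50 CPM (3.23, SE 0.54, adjusted p = 0.00225, with a value of 4.25 without G mouse 2). In Avd both rested on 3 to 6 UMIs per L mouse, with 8.66 and 4.03 CPM of *Wnt6* (4.90, adjusted p = 0.00246) and 10.4 and 4.03 CPM of *Wnt10a* (4.54, adjusted p = 0.00170). Without L mouse 1 both calls in Avd were lost (4.35, adjusted p = 0.0547, and 3.82, adjusted p = 0.0564).

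Basal transcripts moved with these genes. The 5 basal markers summed to 5906 and 4341 CPM in Avp of L mice against 154 and 230 CPM in G mice, and to 2558 and 1040 CPM against 131 and 126 CPM in Avd, with all 5 above 0 in every sum. In C11 the 5 markers stood at 12.9% to 17.5% of their level in the basal C14 of L mouse 1 and 10.7% to 14.1% in L mouse 2. *Wnt6* stood there at 14.4% and 9.53% of C14, and *Wnt10a* at 23.8% and 11.4%. By the same measure *Lgr4* was at 42.6% and 33% and *Sostdc1* at 90.3% and 68% of C14, both above every basal marker. The part of basal RNA in the results for *Wnt6* and *Wnt10a* was not tested.

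In total 4 of 9 members tested were called in Avd, beside 18.7% of 11860 genes, and 4 of 8 in Avp, beside 28% of 8446 genes. Of the other pathway genes, 2 of 42 were higher and 6 lower in Avd, and 7 of 30 were higher and 3 lower in Avp. *Ctnnb1*, which encodes β-catenin, was lower in both, with log2 fold changes of -0.76 in Avd (adjusted p = 0.0321) and -0.88 in Avp (adjusted p = 0.00691), and *Wls* was higher in Avp (47.9 and 55.2 CPM in L against 29.1 and 28.7 CPM in G mice, 1.11). In Avd *Wls* passed the test (0.96) while its CPM overlapped, at 43.3 and 37.6 CPM in L and 40.7 and 36.3 CPM in G mice, so that value rests on the scaling. *Ccnd1* was lower in Avd (-1.17), at 88.3 and 21.5 CPM in L against 194 and 243 CPM in G mice, so the L mice lay far apart. *Apc* was also lower there (-1.03), from 8 and 10 UMIs in L mice. *Cd44* (0.80) and *Myc* (0.63) were higher in Avp. *Sfrp2* was higher in Avd, at 34.6 and 75.2 CPM against 3.48 and 2.87 CPM (5.05, SE 0.37, adjusted p = 1.34e-06). The R-spondin receptor gene *Lgr6* was lower in Avp, at 8.86 and 3.45 CPM against 26 and 29.3 CPM (-1.80, SE 0.41, adjusted p = 0.0102).

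**Figure D4:**
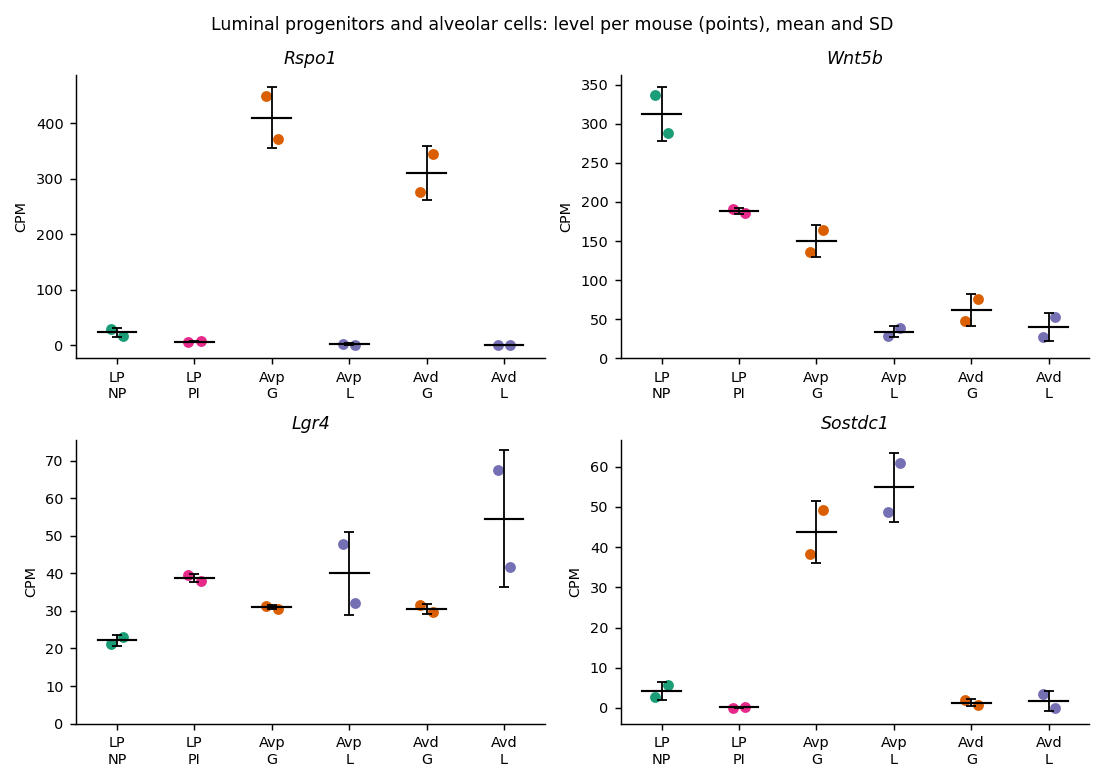
Levels (CPM) of *Rspo1*, *Wnt5b*, *Lgr4* and *Sostdc1* in luminal progenitors (LP), alveolar progenitors (Avp) and differentiated alveolar cells (Avd) by stage. Points are mice, black lines the mean and bars the SD (n = 2). *Rspo1* is high in G mice only, *Wnt5b* is highest in LP of NP mice, and *Sostdc1* is high in Avp only.

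In basal cells, *Wnt6* rose at each step from nulliparous to lactation. It was at 7.29 and 6.37 CPM in NP, 50.6 and 44.2 CPM in G, and 128 and 136 CPM in L mice, and no 2 stages overlapped. The change was 2.86 on the log2 scale from NP to G (SE 0.22, adjusted p = 7.06e-08) and 1.59 from G to L (SE 0.14, adjusted p = 5.78e-05). Its neighbour *Wnt10a* did not pass in either step, with 115 and 124 CPM in NP, 108 and 136 CPM in G and 70 and 103 CPM in L mice (0.12, SE 0.14, adjusted p = 0.513, and -0.39, SE 0.20, adjusted p = 0.141).

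*Lgr4* was at 61.8 and 42.8 CPM in NP and 95.3 and 104 CPM in G mice (0.99, SE 0.16, adjusted p = 9.79e-05), and at 115 and 99.8 CPM in L mice, which overlap with G. *Sostdc1* was at 16 and 21.4 CPM in NP and 115 and 53.4 CPM in G mice (2.30, SE 0.30, adjusted p = 1.40e-05). Both G mice lay above the NP mice but differed from each other by more than the L mice did (56.3 and 76 CPM), and without G mouse 1 the change was 1.65. From G to L *Sostdc1* overlapped (-0.23, adjusted p = 0.564).

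*Rspo1* in basal cells was at 5.64 and 0.910 CPM in NP, 29.7 and 30.5 CPM in G and 9.41 and 13.2 CPM in L mice. It was called higher in G (3.02, SE 0.34, adjusted p = 3.74e-06) and lower again in L (-1.31, SE 0.20, adjusted p = 0.00106). Without NP mouse 1 the first change was 5.04, since NP mouse 2 gave 2 UMIs. *Rspo1* in C13 was at 10.6% and 8.56% of its level in the alveolar C8 of the same mouse, where the median of 8 milk protein genes was 2.13% and 1.58%. These genes ranged from 1.11% to 9.32% in G mouse 1 and from 1.18% to 2.51% in G mouse 2. By the same measure *Rspo1* was at 4.80% and 2.16% of C8 in the non-epithelial C17 and at 6.77% and 3.73% in C19. In fibroblast cluster C18 it was at 14.7% and 15.4%, above C13, from 9 and 8 UMIs. The part of free RNA in the basal level of *Rspo1* was not tested.

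Other markers rose beside *Wnt6*, *Lgr4*, *Sostdc1* and *Rspo1*. The 5 basal markers summed to 10082 and 9693 CPM in NP, 21953 and 16844 CPM in G and 43515 and 38743 CPM in L mice, with 3 called higher and *Krt5* lower in the first step and all 5 higher in the second. The 5 fibroblast markers, all above 0, summed to 175 and 256 CPM in NP and 884 and 665 CPM in G mice, with 4 called higher, and to 640 and 507 CPM in L mice. What part these markers had in the results was not tested.

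*Wnt5b*, *Wnt5a* and *Wnt7b* fell in basal cells from NP to G. *Wnt5b* was at 61.6 and 58.7 CPM in NP and 24.9 and 29 CPM in G mice (-1.07, SE 0.16, adjusted p = 7.11e-05). *Wnt5a* was at 32.2 and 47.8 CPM against 20.9 and 15 CPM (-1.03, SE 0.23, adjusted p = 0.00185) and *Wnt7b* at 13.9 and 17.8 CPM against 1.01 and 1.35 CPM (-3.58, SE 0.40, adjusted p = 3.64e-06). For each of these genes both NP mice lay above both G mice. *Wnt4*, at 18.8 and 17.3 CPM in NP and 12.8 and 15.3 CPM in G mice, did not pass (-0.28, SE 0.23, adjusted p = 0.337).

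Luminal transcripts moved with this group. The 4 luminal markers summed to 5815 and 3909 CPM in basal cells of NP mice and 1253 and 1398 CPM in G mice, and the 4 hormone-sensing markers to 278 and 304 CPM and 17.9 and 15.3 CPM, with all 8 above 0 in NP mice. In C12 *Wnt7b* was at 16.4% and 16.5% of its level in C4, and the hormone-sensing markers at 7% to 13.2% in NP mouse 1 and 9.21% to 17.8% in NP mouse 2. *Wnt5a* was at 30.6% and 46.5% of C4, above every hormone-sensing marker. It lay within the range of the 4 luminal markers, which stood at 12.1% to 53.4% of C4 in NP mouse 1 and 12.2% to 52.4% in NP mouse 2. *Wnt5b* was at 18.3% and 20.4% of C6, where 3 luminal progenitor markers stood at 1.16% to 11.6% and 4 luminal markers at 15.1% to 30%. Their part in the falls was not tested.

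From G to L, *Wnt4* and *Wnt5a* rose in basal cells. *Wnt4* was at 25.6 and 44.5 CPM in L and 12.8 and 15.3 CPM in G mice (1.43, SE 0.29, adjusted p = 0.00400). *Wnt5a* was at 27.8 and 31.7 CPM in L against 20.9 and 15 CPM in G mice (0.85, SE 0.19, adjusted p = 0.00665). *Axin2* passed in neither step, at 3.53 and 1.82 CPM in NP, 2.52 and 2.47 CPM in G and 2.65 and 1.26 CPM in L mice. All 10 members were tested in both steps, with 7 called from NP to G, beside 46.1% of 11086 genes, and 4 from G to L, beside 48.3% of 12720 genes, so the second count is below the share of all genes. The median change of the members was 0.00054 and 0.04, against 0.01 and 0.04 over all genes.

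Of the other pathway genes of basal cells, 16 of 49 tested were higher and 8 lower in gestation, beside 2690 higher and 2424 lower among all genes tested. Their median change was 0.15, against 0.01 over all genes. Secreted inhibitors were among them: *Wif1* was at 169 and 159 CPM in G and 47.9 and 57.8 CPM in NP mice (1.74, SE 0.15, adjusted p = 1.57e-07), and *Sfrp2* rose (1.63). Both genes of ligand secretion rose, *Wls* (0.95) and *Porcn*, whose product attaches the lipid to Wnt proteins (1.41). The transcription factor genes *Tcf7l2* (1.5) and *Tcf7l1* (1.70), the feedback gene *Nkd1* (1.54) and *Bambi* (2.13), a pseudoreceptor gene, also rose, as did *Kremen1* (0.98), and the ligand gene *Wnt11* was lower (-1.01).

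From G to L 11 of 53 were higher and 15 lower, beside 3081 and 3057 among all genes tested, with a median change of -0.19 against 0.04. *Wif1* was at 9.08 and 4.09 CPM in L against 169 and 159 CPM in G mice (-4.50, SE 0.29, adjusted p = 1.60e-05), and *Sfrp2* was lower (-3.51). *Tcf7* (-2.92), the co-receptor gene *Lrp6* (-1.13) and *Znrf3* (-1.36), whose product removes Frizzled from the surface, and *Ccnd1* (-1.03) were lower, while *Tcf7l2* (0.91), *Tcf7l1* (0.72), *Fzd2* (1.23) and *Myc* (0.99) were higher. Thus *Wif1* and *Sfrp2* were highest in gestation among these 3 stages, and *Tcf7l1* and *Tcf7l2* rose in both steps, as *Wnt6* did.

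**Figure D5:**
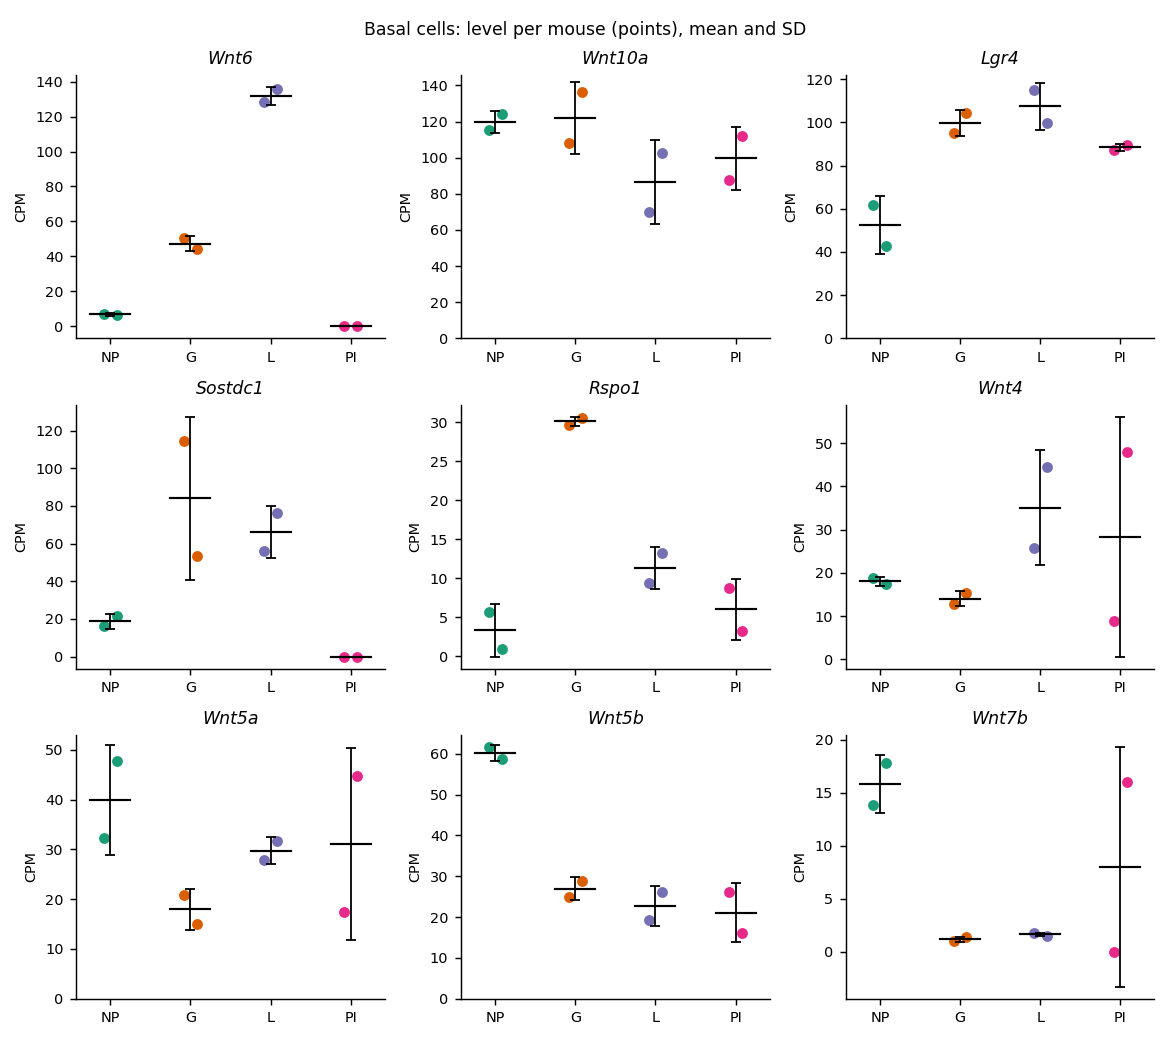
Levels (CPM) of 9 genes in basal cells of NP, G, L and PI mice. Points are mice, black lines the mean and bars the SD (n = 2). *Wnt6* rises from 7.29 and 6.37 CPM in NP to 128 and 136 CPM in L mice, while *Wnt10a* stays between 70 and 136 CPM, and the PI values rest on 28 and 59 cells.

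Basal cells after involution were few, with 28 and 59 cells. *Wnt5b* was at 26.2 and 16 CPM in PI mice, from 3 and 5 UMIs, against 61.6 and 58.7 CPM in NP mice (-1.68, SE 0.42, adjusted p = 0.0141). *Sostdc1* gave 0 UMIs in both PI mice and 68 and 47 UMIs in NP mice, at least 2.54-fold lower with a floor of 3 counts over the group (adjusted p = 0.0288). *Wnt10a* was at 87.4 and 112 CPM against 115 and 124 CPM, and *Lgr4* at 87.4 and 89.6 CPM against 61.8 and 42.8 CPM, which did not pass (adjusted p = 0.146). Of 7 members tested 2 were called, beside 7.43% of 8511 genes. Neither call held with DESeq2 (adjusted p = 0.108 for *Wnt5b* and 0.124 for *Sostdc1*) or without PI mouse 2 (0.387 and 0.300), and that of *Wnt5b* was lost without NP mouse 1 (0.173) or NP mouse 2 (0.166).

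Transcripts of other cell types were present in these sums. The 4 immune markers summed to 831 CPM in PI mouse 1, all of it *Cd74* with the other 3 at 0 UMIs, and the 4 hormone-sensing markers, all above 0, summed to 768 CPM in PI mouse 2, where *Wnt4* was at 48 CPM against 8.74 CPM in PI mouse 1. Their part in the results was not tested. Of the other pathway genes 5 of 45 were higher and 2 lower, beside 7.43% of all genes called. *Procr* (3.68, SE 0.30, adjusted p = 1.38e-08), *Sfrp1* (2.41), *Lgr5* (1.52, from 5 and 24 UMIs in PI mice), *Myc* (0.85) and *Cd44* (0.76) were higher. The receptor genes *Fzd7* (-1.59) and *Fzd1* (-2.65) were lower, from 6 and 9 UMIs and from 1 UMI in each PI mouse. For *Fzd1* the mean in NP mice was 29.7 CPM, while 3 counts in PI mouse 1 stand for 26.2 CPM, so its fall is poorly measured.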

How the data were processed

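The authors made the deposited UMI counts with Cell Ranger, which uses STAR, from reads aligned to mm10, without normalisation between libraries, and deposited a table of quality flags and clusters, which was used as given. 1 annotated cell had no barcode in the matrices. Counts were summed per mouse and cluster (at least 20 cells) or cell class. Tests were run with edgeR 4.0.16 and limma 3.58.1 in R 4.3.3 (TMM, filterByExpr with a minimum count of 10 and a total of 15, quasi-likelihood F-test, Benjamini-Hochberg), with 2 residual degrees of freedom between stages. On counts simulated with a dispersion of 0.05 and 200 changed genes they found 6% to 22% of 2-fold changes and 38% to 93% of 4-fold changes, depending on the comparison. Both settings were fixed and not estimated from these data, so the shares do not give the power of the tests here. A gene that did not pass can still have changed. DESeq2 1.42.0 was an alternative. Counting intervals are exact at 95%, a count of 0 was bounded by 3 counts, and both cover counting error only. The members and lists were chosen with earlier results of these data known. Named pathway genes had adjusted p under 0.05 and 20 CPM or more at 1 stage, up to 10 per comparison. Doublets were left as the authors had treated them. Figures used Python 3.11.15 and matplotlib 3.10.9.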

Additional observations from a re-analysis of the deposited data

Results flagged for a closer look

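Both results below were marked because cell classes differed in their change between NP and PI mice, by a test of the difference itself, in the edgeR fit with the mouse as a term. The change of *Lgr4* in luminal progenitors was 0.78 above that in differentiated hormone-sensing cells on the log2 scale (SE 0.27, adjusted p = 0.0496), with higher *Lgr4* in both PI mice than in both NP mice in luminal progenitors. The call was lost without the mouse term (0.77, adjusted p = 0.0855), without the filter on low counts (0.79, adjusted p = 0.0503) and without any 1 mouse. The change of *Wnt5b* in hormone-sensing progenitors was 1.35 above that in differentiated hormone-sensing cells (SE 0.32, adjusted p = 0.0157). It was lost without the mouse term (adjusted p = 0.103) and ranged from 0.89 to 1.76 with 1 mouse left out. In differentiated hormone-sensing cells *Wnt5b* was at 1.99 to 8.61 CPM. In C4 of NP mice it stood at 2.58% and 1.31% of C6, where 3 luminal progenitor markers stood at 1.94% to 12.5% and 0.854% to 8.63%, and these markers summed to 34 and 28.1 CPM in PI against 78.4 and 39.9 CPM in NP mice. Their part in the difference was not tested. Groups of 2 mice were too small for a search for single samples far from the others.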

How the results depend on the processing

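None of the called fold changes of members changed sign under an alternative that could be run. With DESeq2 the genes called were 1590 in LP, 823 in HSp, 3098 in basal G against NP, 327 in basal PI against NP and 1144 in Avp, and 0 members were called in basal PI against NP (2 at an unadjusted p under 0.05). A test against a log2 fold change of 1 at FDR 0.01 (glmTreat) called 231 genes in LP, 127 in HSp, 121 in HSd PI against NP, 464 in HSd G against NP, 611, 760 and 36 in basal cells (G against NP, L against G, PI against NP), 342 in Avd and 352 in Avp. It called 0 members in LP, HSp, HSd PI against NP and basal PI against NP (2, 1, 1 and 2 at an unadjusted p under 0.05, and 5, 3, 3 and 2 by edgeR's quasi-likelihood test), 4 in basal G against NP and 1 in basal L against G, and it ended the call of 22 of 36 member fold changes. Without the filter on low counts 18 genes and 0 members (3 unadjusted) were called in basal PI against NP, 555 genes and 2 members in the HSp difference and 2 members in the LP difference. Basal cells of all stages in 1 fit gave 1 member for PI against NP. Without the mouse term the differences gave 1098 genes for LP, 112 for HSp and 408 for basal cells, and 0 members for LP and HSp (3 and 2 unadjusted).

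With 1 mouse left out, which assumes that a lone mouse varies like the others, the genes called ranged from 1704 to 2472 in LP, 476 to 1960 in HSp, 928 to 2458 in HSd PI against NP, 808 to 1580 in HSd G against NP, 3423 to 5088, 4657 to 5703 and 194 to 891 in basal cells, 609 to 1890 in Avd and 1625 to 2538 in Avp. The differences ranged from 1095 to 2276 for LP, 213 to 485 for HSp and 370 to 642 for basal cells. A member that then failed the filter on low counts was not tested. Members called ranged from 4 to 5, 2 to 4, 1 to 4, 3 to 3, 7 to 7, 4 to 5, 0 to 3, 2 to 4 and 4 to 6 in the same order, and from 0 to 2 for the LP and HSp differences. Of 140 such member fold changes 121 kept their call. A replicate block gave 3294 genes in LP, 1642 in HSp, 2058 in HSd PI against NP, 1628 in HSd G against NP, 5276, 6336 and 518 in basal cells, 2088 in Avd and 2551 in Avp, and all 36 member fold changes kept their call. The numbers only name mice: same-numbered mice correlated at -0.05 to 0.07 in their deviations. With DESeq2 the share of called genes that were higher was 55.3%, against 43% in the edgeR test, for HSd G against NP, 62.6% against 51% in Avd and 71.7% against 56% in Avp.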
